A study of Homo sapiens with 4 samples.

Results

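The pluripotency network genes are 10 genes of the undifferentiated human embryonic stem cell: the core transcription factors POU5F1 (OCT4), SOX2 and NANOG, the chromatin-binding regulators PRDM14, SALL4 and ZFP42 (REX1), the SAP-domain pair DPPA2 and DPPA4, and the RNA-binding pair LIN28A and LIN28B. They were taken by gene symbol from tables of 17894 genes, and all 10 were found. The tables came from H1, a human embryonic stem cell line, after 2 days of hematopoietic differentiation on mAGM-S3, a mouse stromal cell line. The differentiating human cells were sorted from the stroma by a surface antigen of human cells and analyzed by RNA-SEQ.

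There were 4 libraries. The control library came from wild type H1 cells without added R-spondin2. The R-spondin2 library came from wild type H1 cells that received R-spondin2, a secreted WNT agonist, at 20 ng/mL on the first day. The other 2 libraries came from H1 cells of genotype LGR4-/- without R-spondin2, and LGR4 encodes a receptor for R-spondins. Their labels number them 1 and 2 without saying how the lines were made, and they are called clones here. With 1 library for the control and 1 for R-spondin2, no difference has a replicate check and no p-value was computed. The difference between the clones, 1 library each, is the only spread within a genotype. Both clone comparisons and the R-spondin2 comparison share the single control library.

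OCT4, SOX2 and NANOG bind many regulatory regions together, among them their own, and keep embryonic stem cells self-renewing. PRDM14 and SALL4 act beside them on chromatin, ZFP42 is a classical marker of the undifferentiated state, and the LIN28 proteins block the maturation of let-7 microRNAs. When embryonic stem cells enter mesoderm the network is dismantled stepwise, and SOX2, which also serves the neural fate, is known to be lost early.

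Levels are given in FPKM, which divide a gene's fragments by transcript length and by the depth of the library, so that genes can be set beside each other. Differences are given as log2(FPKM+1) minus that of the control, a scale that understates the difference of low genes. A gene entered the comparisons if it averaged at least 1 FPKM over the 4 libraries. This held for 12697 genes, and all 10 network genes passed. A gene was called at a difference of at least 2-fold, that is 1 on the log2 scale, and for LGR4-/- both clones had to pass in the same direction. As a check of the genotype labels, LGR4 stood at 21.8 FPKM in the control, 24.3 with R-spondin2, 7.40 in clone 1 and 13.95 in clone 2, so that LGR4 RNA was lower in both clones but still present.

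Promoter windows of the core factors NANOG and SOX2 are shown because OCT4 and SOX2 proteins are known to bind a joint motif, and because both genes were higher in both clones. The windows run from 250 bases before to 50 bases after a RefSeq transcript start in GRCh38.p14, on the strand of the gene, whereas the tables were made on hg19 and hold no coordinates. Capitals mark the letters ATGCAAA, which OCT proteins recognize, and CATTGT, which SOX proteins recognize, on either strand, with the base between them where they lie 1 base apart. The NANOG window is chr12:7789152-7789451 and the SOX2 window is chr3:181711675-181711974, both on the plus strand.
NANOG: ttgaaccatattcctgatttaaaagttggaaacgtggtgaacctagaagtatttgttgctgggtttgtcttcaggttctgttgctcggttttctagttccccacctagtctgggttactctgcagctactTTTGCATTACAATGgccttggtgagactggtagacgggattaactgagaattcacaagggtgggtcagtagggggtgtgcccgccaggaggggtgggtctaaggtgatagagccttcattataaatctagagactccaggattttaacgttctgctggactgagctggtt
SOX2: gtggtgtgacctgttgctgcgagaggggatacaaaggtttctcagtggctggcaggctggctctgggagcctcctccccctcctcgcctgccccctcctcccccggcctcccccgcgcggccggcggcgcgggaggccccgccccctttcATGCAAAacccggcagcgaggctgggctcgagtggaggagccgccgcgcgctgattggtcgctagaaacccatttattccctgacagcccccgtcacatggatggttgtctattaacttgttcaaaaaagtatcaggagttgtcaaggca

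In the NANOG window the octamer and SOX letters lay 1 base apart on the opposite strand, 120 to 107 bases before the start. In the SOX2 window the octamer letters lay on the strand of the gene, 100 to 94 bases before the start, and no SOX letters were found. The other members with a window used here were ZFP42, DPPA2, DPPA4 and LIN28B. Member windows on chromosome 8, where PRDM14 lies, were left out, so the member counts do not cover PRDM14. No window was at hand for POU5F1, SALL4 and LIN28A. LIN28B has 2 windows, which made 7 windows for 6 members. Among these, SOX letters occurred in 2 of 7, in NANOG and in 1 LIN28B window, against 10.8% of all 34943 RefSeq windows. Octamer letters occurred in 2 of 7 against 4.47%. The joint letters occurred in 1 of 7, and over all windows in 3, or 0.00859%. The letters CTTTGAT, recognized by the TCF/LEF factors of WNT signaling, occurred in 0 of 7 windows against 2.63%. These are matches of letters and no measure of binding.

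Across the network, 9 of the 10 genes had their lowest level with R-spondin2, the next in the control and the highest levels in the LGR4-/- clones, although for ZFP42 the order of the wild type libraries turned when libraries were rescaled. Only LIN28B ran the other way. The share of all genes in this full order was not counted, but 34.4% of all genes tested had both clones above both wild type libraries. The summed level of the 10 genes was 1283 FPKM in the control, 1014 FPKM with R-spondin2, 2081 FPKM in clone 1 and 1921 FPKM in clone 2. As a share of all FPKM in the library these sums were 0.294%, 0.234%, 0.477% and 0.439%. POU5F1 alone made up between 44.0% and 51.4% of the network sum in each library.

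**Figure D1:**
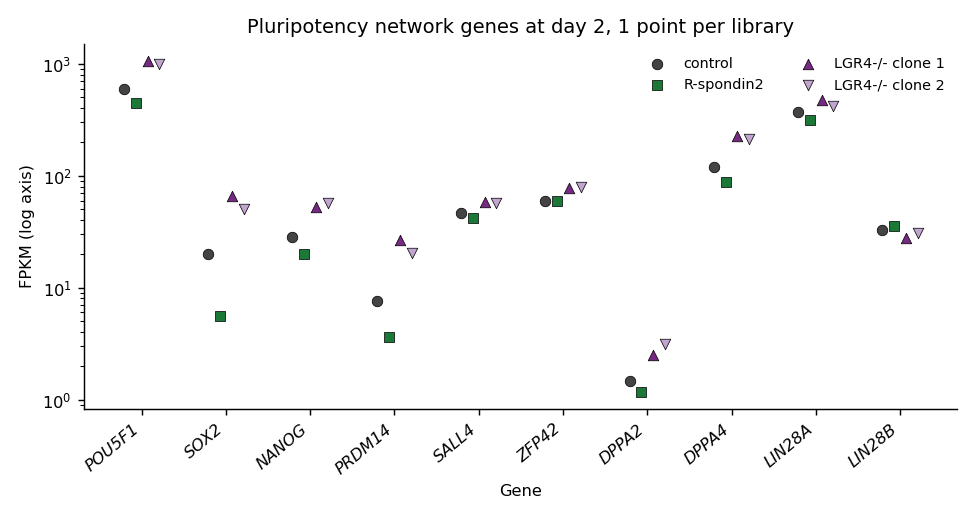
FPKM of the 10 pluripotency network genes on a log axis, with 1 point for each library: control (circle), R-spondin2 (square), LGR4-/- clone 1 (upward triangle) and clone 2 (downward triangle). For 9 genes the triangles lie above the circle and the square, and for LIN28B they lie below both.

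The plot of levels by library shows how far apart the members stood. In the control, POU5F1 ranked 106 of the 17894 genes by FPKM and LIN28A ranked 155. DPPA4 ranked 548, ZFP42 1225, SALL4 1647, LIN28B 2407, NANOG 2826 and SOX2 3929. PRDM14 ranked 7534 and DPPA2 11919. The size of the range across libraries did not follow this order: the highest level was 11.8 times the lowest for SOX2 and 7.45 times for PRDM14, but 1.35 times for ZFP42 and 1.27 times for LIN28B.

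Among the core factors, POU5F1 was the most abundant. It stood at 597 FPKM in the control, 446 FPKM with R-spondin2, 1068 FPKM in clone 1 and 988 FPKM in clone 2. Both clones were thus above both wild type libraries, by 0.84 and 0.73 on the log2 scale against the control, and R-spondin2 was below the control by a difference of -0.42. None of these passed 2-fold. POU5F1 lies at chr6:31164337-31180731 on the minus strand (GRCh38, GENCODE 29), and its exons overlap those of TCF19 on the opposite strand. TCF19 stood between 9.75 and 11.4 FPKM in all 4 libraries, far below POU5F1. The near-identical retrocopy POU5F1B was listed at no more than 0.33 FPKM in any library. The strand setting of the counting is not given in the sources used here.

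SOX2 had the widest range of the network. It stood at 19.9 FPKM in the control, 5.58 FPKM with R-spondin2, 66.0 FPKM in clone 1 and 50.7 FPKM in clone 2. The R-spondin2 level was 28.1% of the control level, while the clone levels were 3.32 and 2.55 times the control level. On the log2(FPKM+1) scale these differences were -1.67, 1.68 and 1.31, and SOX2 was the only member to pass 2-fold in both directions, lower with R-spondin2 and higher in both clones. The clones themselves differed by -0.37 on the log2 scale (clone 2 minus clone 1), less than either differed from the control. SOX2 is a gene of a single exon at chr3:181711924-181714436 and lies within an intron of the noncoding transcript SOX2-OT, which was not analysed here.

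NANOG, the homeodomain member of the core, stood at 28.1 FPKM in the control, 20.1 FPKM with R-spondin2, 52.8 FPKM in clone 1 and 56.4 FPKM in clone 2. Its differences from the control were -0.46 with R-spondin2, 0.89 in clone 1 and 0.98 in clone 2. Neither clone passed 2-fold on the log2(FPKM+1) scale, although the clone 2 level was 2.01 times the control level. POU5F1 and NANOG kept a narrow ratio to each other, with 21.2, 22.2, 20.2 and 17.5 units of POU5F1 per unit of NANOG in the control, R-spondin2, clone 1 and clone 2 libraries. The ratio of POU5F1 to SOX2 moved far more, from 79.9 with R-spondin2 to 16.2 in clone 1 and 19.5 in clone 2. SOX2 thus shifted more against POU5F1 than NANOG did.

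**Figure D2:**
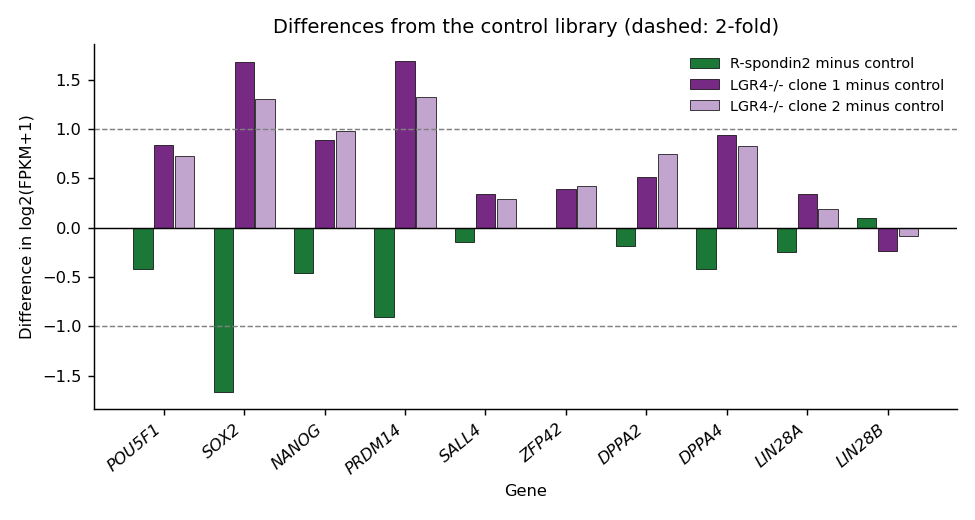
Difference in log2(FPKM+1) from the control library for each network gene, with 1 bar for R-spondin2 and 1 for each LGR4-/- clone, and dashed lines at 2-fold. Both clone bars of SOX2 and PRDM14 pass the upper line, and the R-spondin2 bar of SOX2 passes the lower line.

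PRDM14, a PR-domain regulator that represses differentiation genes, was the other member called in both clones, as the bars of differences from the control show. It stood at 7.59 FPKM in the control, 3.59 FPKM with R-spondin2, 26.8 FPKM in clone 1 and 20.5 FPKM in clone 2. The clones were 1.69 and 1.32 above the control on the log2 scale. With R-spondin2 the difference was -0.90, which did not pass 2-fold on the log2(FPKM+1) scale, although the R-spondin2 level was 47.3% of the control level. With a pseudocount of 0.1 in place of 1 the difference was -1.06 and passed.

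SALL4, a zinc finger partner of OCT4 and of the NuRD repressor complex, varied little. It stood at 46.1 FPKM in the control, 41.6 FPKM with R-spondin2, 58.6 FPKM in clone 1 and 56.6 FPKM in clone 2, with differences of -0.14, 0.34 and 0.29. ZFP42 was flat between the wild type libraries, at 59.1 FPKM in the control and 58.8 FPKM with R-spondin2, and higher in the clones at 77.6 and 79.6 FPKM. Its differences were -0.01 with R-spondin2, 0.39 in clone 1 and 0.42 in clone 2. The R-spondin2 difference of ZFP42 was smaller than the difference between the clones, 0.04, and it took the opposite sign after rescaling.

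DPPA2 and DPPA4 encode SAP-domain proteins that form a heterodimer, and the genes are neighbours on chromosome 3, both on the minus strand with 9623 bases between them (chr3:109293788-109316517 and chr3:109326141-109337572, GRCh38). Their levels were far apart. DPPA4 stood at 119 FPKM in the control, 88.7 FPKM with R-spondin2, 228 FPKM in clone 1 and 211 FPKM in clone 2. DPPA2 stood at 1.46, 1.16, 2.51 and 3.12 FPKM in the same order, the lowest of the network in every library. DPPA4 thus exceeded DPPA2 between 67.7 and 90.7 times. DPPA4 differed from the control by -0.42 with R-spondin2 and by 0.93 and 0.83 in the clones, values near those of POU5F1. DPPA2 differed by -0.19, 0.51 and 0.74, and its R-spondin2 difference was no larger than the 0.23 between the clones.

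The LIN28 paralogs parted. LIN28A stood at 372 FPKM in the control, 313 FPKM with R-spondin2, 473 FPKM in clone 1 and 424 FPKM in clone 2. LIN28B stood at 33.0 FPKM in the control, 35.4 FPKM with R-spondin2, 27.9 FPKM in clone 1 and 31.0 FPKM in clone 2. LIN28B was therefore the only member with both clones below both wild type libraries, although its differences from the control were small, at 0.10 with R-spondin2, -0.24 in clone 1 and -0.09 in clone 2. Those of R-spondin2 and clone 2 were smaller than the 0.15 between the clones. LIN28A differed from the control by -0.25, 0.35 and 0.19. The ratio of LIN28A to LIN28B was 11.3 in the control, 8.85 with R-spondin2, 17.0 in clone 1 and 13.7 in clone 2. The exons of LIN28B overlap those of LIN28B-AS1 on the opposite strand, a transcript that was not analysed here.

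Counted over the network, 2 of 10 genes (SOX2 and PRDM14) were at least 2-fold higher in both LGR4-/- clones, against 0.236% of all genes tested, and 0 were at least 2-fold lower, against 1.08%. At 1.5-fold, 5 of 10 were higher in both clones (POU5F1, SOX2, NANOG, PRDM14 and DPPA4), against 2.61%, and 0 were lower, against 3.09%. Both clones lay above both wild type libraries for 9 of 10 genes, against 34.4% of all genes, and below both for 1 of 10, against 27.6%. The median difference of the 10 genes was 0.68 in clone 1 and 0.73 in clone 2, beside 0.02 in either clone over all genes tested. Between the clones 0 of 10 genes differed 2-fold, against 0.252%. The 10 genes were chosen with results of these libraries known, so that the counts describe them and are no test. The plot of all genes by level sets the 10 genes against the rest.

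**Figure D3:**
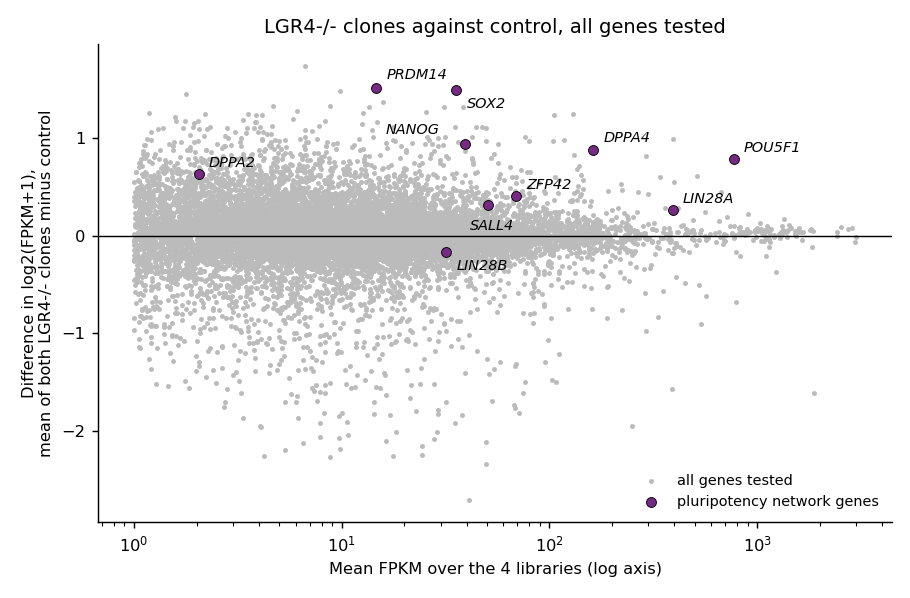
Mean difference in log2(FPKM+1) of both LGR4-/- clones from the control against mean FPKM over the 4 libraries on a log axis, for all 12697 genes tested (grey) and the 10 network genes (purple). PRDM14 and SOX2 lie near the upper edge of the cloud at 1.51 and 1.49, POU5F1 lies at 0.78 and DPPA4 at 0.88, and LIN28B lies below 0.

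With R-spondin2, 1 of 10 network genes (SOX2) was at least 2-fold lower, against 0.173% of all genes tested, and 0 were at least 2-fold higher, against 0.0473%. At 1.5-fold, 2 of 10 were lower (SOX2 and PRDM14), against 1.46%, and 0 were higher, against 0.536%. The median difference of the 10 genes was -0.33, beside -0.01 for all genes tested. The differences with R-spondin2 were below 0 for 9 of the 10 genes (8 after rescaling, without ZFP42), against 6585 of all 12697 genes tested. For ZFP42 and DPPA2 they were smaller than the difference between the clones.

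The error from counting was estimated for the 6 members with a single annotated transcript, from the reads that their FPKM imply at an estimated depth of 8850000 to 9040000 reads a library. These depths rest on the low FPKM, of which 77.9% to 79.3% lay within 0.2 of a whole read. The intervals are 95% Clopper-Pearson intervals of the log2 ratio of reads, without a pseudocount, and cover counting error only, not the spread between cultures. SOX2 rested on 452 implied reads in the control, 124 with R-spondin2, 1469 in clone 1 and 1127 in clone 2. Its log2 ratio to the control was -1.84 with R-spondin2 (interval -2.13 to -1.55), 1.73 in clone 1 (1.58 to 1.88) and 1.35 in clone 2 (1.19 to 1.51). All 3 intervals lay beyond 2-fold.

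**Figure D4:**
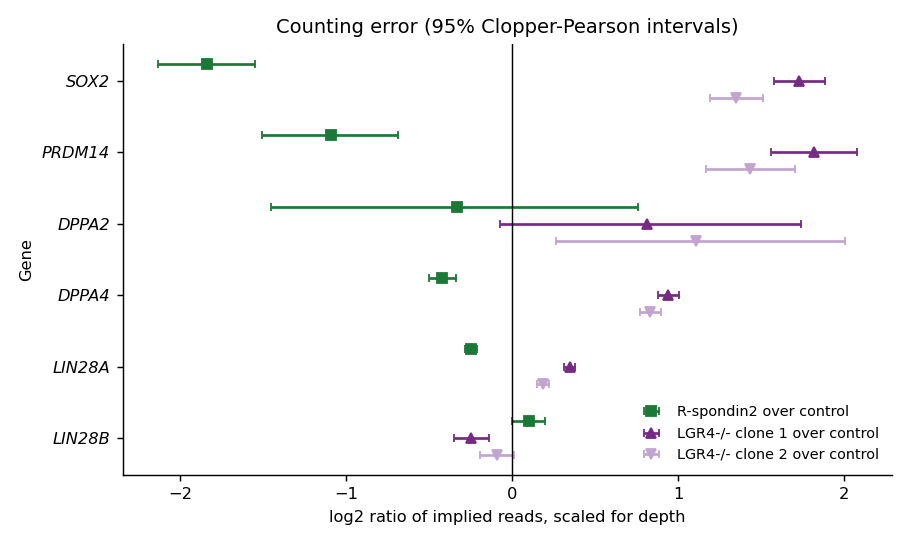
Log2 ratio of implied reads to the control, scaled for depth, for the 6 network genes with a single annotated transcript, with 95% Clopper-Pearson intervals for R-spondin2 (squares), LGR4-/- clone 1 (upward triangles) and clone 2 (downward triangles). The intervals are widest for DPPA2, which rested on at most 38 implied reads in a library, and narrowest for LIN28A, which rested on at least 11108.

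PRDM14 rested on 161, 74, 556 and 426 implied reads in the order control, R-spondin2, clone 1 and clone 2. Its clone ratios were 1.82 (1.56 to 2.08) and 1.43 (1.17 to 1.71), and its R-spondin2 ratio was -1.09 (-1.51 to -0.68), which spans 2-fold. DPPA2 is the member that depth limited most, with 18, 14, 31 and 38 implied reads. Its ratio was 0.81 in clone 1 (-0.07 to 1.74), 1.11 in clone 2 (0.26 to 2.01) and -0.33 with R-spondin2 (-1.45 to 0.76), so that neither the clone 1 nor the R-spondin2 difference was detectable at this depth.

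DPPA4, LIN28A and LIN28B rested on 1358 reads or more in every library, as the plot of counting intervals shows by their short bars. DPPA4 had ratios of 0.94 (0.88 to 1.00) and 0.83 (0.77 to 0.90) in the clones. LIN28A had ratios of 0.35 (0.31 to 0.38) and 0.19 (0.15 to 0.22) in the clones, small but larger than counting error. For LIN28B the interval of clone 1 lay below 0 (-0.35 to -0.14), and that of clone 2 included 0 (-0.19 to 0.01). The clones differed from each other beyond counting error in 5 of these 6 genes, DPPA2 being the exception. Clone 2 was lower than clone 1 in SOX2, by a log2 ratio of -0.38 (-0.49 to -0.27), in PRDM14, by -0.38 (-0.57 to -0.20), in LIN28A, by -0.16 (-0.19 to -0.13), and in DPPA4, by -0.11 (-0.16 to -0.05). It was higher in LIN28B, by 0.15 (0.05 to 0.26).

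Genes known to accompany the network in primed embryonic stem cells were taken as a list of 30, and all 30 passed the filter on low values. In both clones, 4 of 30 were at least 2-fold higher, against 0.236% of all genes tested, and 0 were lower, against 1.08%. At 1.5-fold 13 were higher, against 2.61%, and 0 lower, against 3.09%. The median difference of the list was 0.64 over the mean of both clones. The called genes were USP44, a deubiquitinase, TERF1, a telomere-binding protein, GDF3, a ligand of the TGF-β family, and PIM2, a kinase. USP44 stood at 8.99 FPKM in the control, 4.53 FPKM with R-spondin2, 27.0 FPKM in clone 1 and 22.6 FPKM in clone 2. TERF1 stood at 65.3, 41.9, 180 and 133 FPKM in the same order. TERF1 and PIM2 passed narrowly in clone 2, at 1.01 and 1.00 on the log2 scale, and both dropped out when libraries were scaled by their median ratio, which left 2 of the 4 called.

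GDF3 was high in the clones, at 22.0 and 20.5 FPKM, and alike in the wild type libraries, at 8.92 FPKM in the control and 7.88 FPKM with R-spondin2. PIM2 stood at 23.0, 15.1, 55.1 and 47.2 FPKM in the order used above. With R-spondin2, 0 of the 30 genes passed 2-fold, against 0.0473% of all genes tested higher and 0.173% lower, and the list median was -0.32. At 1.5-fold, 3 were lower (USP44 by a difference of -0.85, FOXD3 by -0.64 and TERF1 by -0.63), against 1.46% of all genes tested. None was higher at 1.5-fold, against 0.536%. FOXD3, a forkhead factor, was named after its values were seen.

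Markers of naive pluripotency, the state before implantation, gave other counts. Of 15 genes 9 passed the filter, 0 were higher and 1 was at least 2-fold lower in both clones, against the same 0.236% and 1.08% of all genes, with a list median of -0.42. The called gene was TBX3, which stood at 13.1 FPKM in the control, 19.8 FPKM with R-spondin2, 2.07 FPKM in clone 1 and 4.01 FPKM in clone 2. TBX3 is also a T-box factor of mesoderm and other lineages. At 1.5-fold 3 of the 9 naive markers were lower in both clones (TBX3, KLF5 and NR0B1), against 3.09% of all genes tested. None of the naive markers was higher at 1.5-fold, against 2.61%. With R-spondin2 the list median was 0.09 and 0 genes passed 2-fold, against 0.0473% of all genes tested higher and 0.173% lower.

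**Figure D5:**
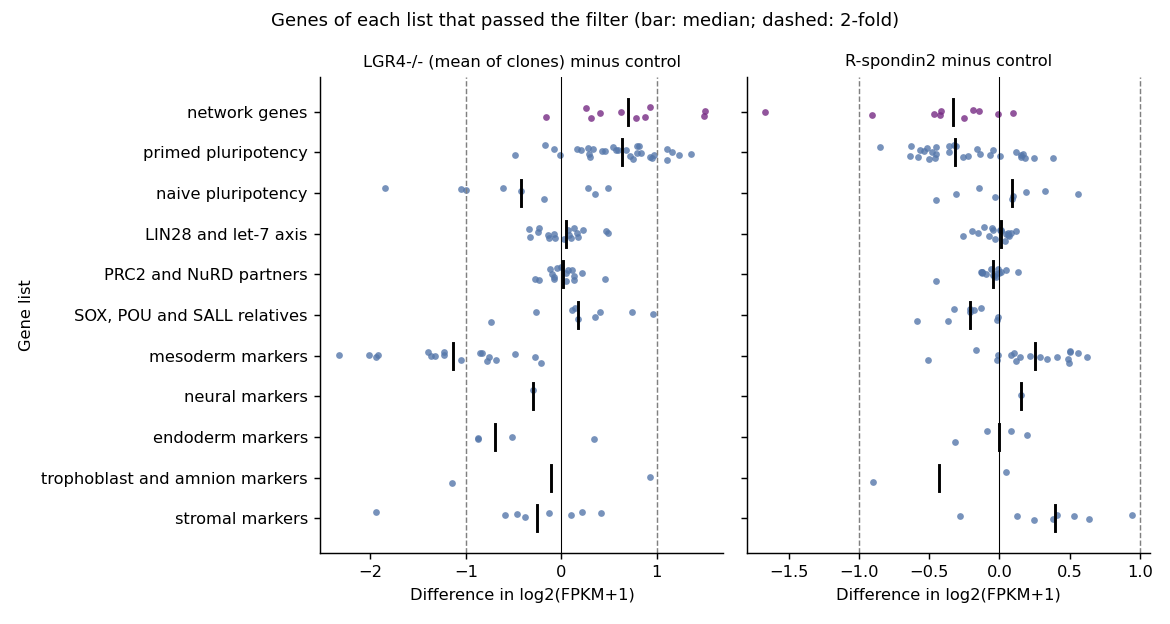
Differences in log2(FPKM+1) from the control for the genes of each list that passed the filter (points) and their median (black bar), for the mean of both LGR4-/- clones (left) and R-spondin2 (right), with dashed lines at 2-fold. The network and primed lists lie mostly right of 0 in the clones with medians of 0.71 and 0.64, and the mesoderm markers lie left of 0 with a median of -1.14.

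The partners of the network genes stayed near 0 in the plot of gene lists. The LIN28 and let-7 list held 18 genes, all of which passed the filter. In both clones 0 passed 2-fold, against 0.236% of all genes tested higher and 1.08% lower. The list median was 0.05 in the clones and 0.01 with R-spondin2. Its most abundant genes were IGF2BP1 and HMGA2, known let-7 targets, and ARID3B. HMGA2 stood at 53.6 FPKM in the control, 54.1 FPKM with R-spondin2, 54.6 FPKM in clone 1 and 58.9 FPKM in clone 2. Of 16 subunits and partners of the PRC2 and NuRD chromatin complexes 0 passed 2-fold in both clones, against the same shares of all genes. The medians were 0.02 in the clones and -0.04 with R-spondin2, and CHD4, the NuRD ATPase, stood between 94.9 and 104 FPKM in all libraries.

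Of 13 relatives of SOX2, POU5F1 and SALL4 in their gene families, 9 passed the filter. None passed 2-fold in both clones, against 0.236% of all genes tested higher and 1.08% lower, and the median was 0.18. Among the SALL genes the directions differed. SALL2 stood at 43.7 FPKM in the control, 33.7 FPKM with R-spondin2, 81.2 FPKM in clone 1 and 67.5 FPKM in clone 2. SALL1 stood at 33.5, 33.0, 19.2 and 20.2 FPKM in the same order, lower in both clones. With R-spondin2 the list median was -0.21 and 0 genes passed 2-fold, against 0.0473% of all genes tested higher and 0.173% lower.

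Markers of other cell types were read beside the network. All 18 mesoderm markers passed the filter, none was at 0, and all 18 were lower in both clones than in the control, 6 of them at least 2-fold in both (MESP1, MESP2, HAND1, FOXF1, APLNR and CDX2), against 1.08% of all genes tested. Of all 12697 genes tested, 5845 were lower than the control in clone 1 and 5907 in clone 2. With R-spondin2, 14 of the 18 markers were higher and 4 lower, with a median of 0.25. Of all 12697 genes tested, 6066 were higher and 6585 lower with R-spondin2. No mesoderm marker passed 2-fold with R-spondin2, against 0.0473% of all genes tested higher and 0.173% lower. The summed level of the markers was 1414 FPKM in the control, 1798 FPKM with R-spondin2, 542 FPKM in clone 1 and 826 FPKM in clone 2. MIXL1 at 377 FPKM and APLNR at 362 FPKM made up most of the control sum. The sums of the network and of the mesoderm markers thus lay in opposite orders over the 4 libraries. In RNA of a whole sorted population, fewer cells of a type and less RNA per cell cannot be told apart, and the part of the mix of cells in the network differences was not tested.

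SOX2 also marks neural cells, and of 10 neural markers 9 stood under 1 FPKM in every library, SOX1 among them at no more than 0.03 FPKM. NES, which stem cells express too, was the only one to pass the filter. Of 8 endoderm markers 4 passed the filter and 0 passed 2-fold in both clones, against 0.236% of all genes tested higher and 1.08% lower. Of 10 trophoblast and amnion markers 2 passed the filter, and they lay in opposite directions. GATA3 was at least 2-fold lower in both clones at levels under 2 FPKM, against the same 1.08% of all genes tested. KRT7 stood at 1.6 FPKM in the control, 0.39 FPKM with R-spondin2, 4.67 FPKM in clone 1 and 3.37 FPKM in clone 2. On the log2(FPKM+1) scale it was higher in both clones by 1.5-fold but not by 2-fold in clone 2. VGLL1 and CGB5 were listed at 0 in every library. Of 10 stromal markers 8 passed the filter, and 5 were lower and 2 (THY1 and COL1A1) higher in both clones than in the control. LUM was the one to pass 2-fold, lower in both, against the same 1.08% of all genes tested. Of all 12697 genes tested, 5845 were lower and 6791 higher than the control in clone 1. In clone 2 these counts were 5907 and 6754. The stromal markers summed to 510 FPKM in the control and 623 FPKM with R-spondin2. The sum was 388 FPKM in clone 1 and 477 FPKM in clone 2. This order over libraries was that of the mesoderm markers. In the control, TAGLN at 265 FPKM and COL1A2 at 115 FPKM made up most of the sum. DCN and POSTN stood at no more than 0.27 and 0.39 FPKM in any library. The part of the stromal markers in the network differences was not tested.

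The genes most like SOX2, PRDM14 and NANOG over the 4 libraries were found by the Euclidean distance between profiles of log2(FPKM+1), each centred on its own mean, among the 9029 genes that averaged at least 5 FPKM. For SOX2 they were HES3, a HES family repressor, at a distance of 0.144, PPP2R2B at 0.535 and PRDM14 at 0.652. HES3 stood at 5.15 FPKM in the control, 0.85 FPKM with R-spondin2, 19.9 FPKM in clone 1 and 13.1 FPKM in clone 2. The nearest to PRDM14 were LECT1 at 0.18, USP44 at 0.194 and LINGO1 at 0.220. NANOG had TMEM125 at 0.0514, SCGB3A2 at 0.111 and HSD11B2 at 0.133. These likenesses rest on 4 libraries and are a description.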

How the data were processed

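RNA-SEQ (TruSeq kit) measured sorted human cells on day 2 of differentiation of H1 on stroma. The authors deposited FPKM to 2 decimals for 17894 genes in each of 4 libraries. The submitters' processing notes name BWA, Bowtie, RSEM and hg19, without roles or versions. FPKM are already scaled for transcript length and depth, so no count model was applied.

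Values were taken to log2(FPKM+1), since the study's methods also add 1 before the log, after a filter of a mean of at least 1 FPKM. Genes were called at 2-fold. Groups came from the labels. The members and the 10 gene lists were chosen with earlier results of these data known, and the lists were written without a database. Named were all members, the 3 nearest profiles of SOX2, PRDM14 and NANOG, and LGR4. From each list, genes called at 2-fold or, where none was, some of the 3 most abundant could be named. FOXD3, KLF5, NR0B1, KRT7, THY1, COL1A1, COL1A2, TAGLN, MIXL1 and markers at low level were named after their values were seen.

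The depth of a library was taken as the read total that brought its low FPKM nearest to whole reads, with transcript lengths of GENCODE 29 for 8068 genes. At this depth 77.9% to 79.3% of the low values lay near whole reads, against 40.6% to 46.4% with lengths shuffled among genes. The depth was chosen for the largest share with the true lengths and was not fitted again for the shuffled ones. The shares are therefore not compared on equal terms. Coordinates are of GRCh38 and promoter windows of RefSeq GRCh38.p14. The calculations were checked on simulated data. Alternatives were a pseudocount of 0.1, no filter or a mean of at least 5 FPKM, rescaled libraries, a 1.5-fold threshold, each clone left out, clones averaged before the log, and motifs on the strand of the gene. Python 3.11.15, numpy 2.4.6, scipy 1.17.1, pandas 2.3.3 and matplotlib 3.10.9 were used.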

Additional observations from a re-analysis of the deposited data

How the results depend on the processing

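Of 148 single values of the 10 network genes under the alternatives tried, 141 kept their direction and their side of the threshold, 5 passed a threshold they had not passed before and 2 turned from -0.01 to 0.002, both of ZFP42 with R-spondin2 under rescaling. The changed filters on low values do not enter a gene's own difference. The values under them, part of the 141, could only stay the same and are no check. The 1.5-fold threshold also leaves each difference unchanged and could only add calls. Leaving out a clone, or averaging the clones before the log, could likewise not take away a call made in both clones. The count of network genes called in both LGR4-/- clones was 2 and went to 5 at 1.5-fold, and it was 2 without either clone. With R-spondin2 the count was 1, and went to 2 with a pseudocount of 0.1 or at 1.5-fold, through PRDM14. Of the 92 genes of the 5 pluripotency and partner lists, 5 were called in both clones. This count was 8 with a pseudocount of 0.1, 3 with libraries scaled by their median ratio (without TERF1 and PIM2), 7 with libraries scaled to one sum and 19 at 1.5-fold, and it ran from 5 without clone 1 to 12 without clone 2. Scaling to one sum moved the libraries against the control only by factors of 0.994 to 1.002. It raised all FPKM before 1 was added, which works like a smaller pseudocount. FOXD3 and NR0B1 were added both by this scaling and by the pseudocount of 0.1. On the strand of the gene alone, 0 member windows held the joint octamer and SOX letters. A filter of at least 5 FPKM left out DPPA2. Depth limited DPPA2 most. No paired analysis was possible because control and R-spondin2 have 1 library each, so that the groups share fewer than 2 replicate numbers.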

Other observations

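The gene ontology column deposited with the values offers a grouping that does not depend on the lists above. Its term for stem cell population maintenance held 15 genes, 3 of them network genes (POU5F1, SOX2 and NANOG). In both LGR4-/- clones 1 of the 15 was at least 2-fold higher, SOX2, against 0.236% of all genes tested, and 2 were at least 2-fold lower, FGF10 and NOG, against 1.08%. The median difference of the 15 genes was 0.02 in the clones and -0.17 with R-spondin2, where 1 gene, SOX2, was at least 2-fold lower, against 0.173%.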
